A study of Mus musculus with 13 samples.

Results

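The surfactant apparatus of the lung was followed, through 8 of its genes, in single-cell libraries from mice given elastase or ovalbumin and from their controls. The set held 8 of the 31053 genes listed in the deposited matrix, matched by symbol: Sftpa1, Sftpb, Sftpc and Sftpd, which encode the surfactant proteins, Abca3 and Lamp3 of the lamellar body, Napsa, an aspartic protease, and Slc34a2, a phosphate transporter. Their unique molecular identifiers (UMIs, each standing for one captured transcript) were summed per library and cell class.

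Emphysema was produced in C57BL/6 mice with porcine pancreatic elastase (PPE) given into the airway, weekly in the PPE-emphysema group. The PPE-recovery group had a single instillation of PPE, which the paper describes as high-dose, followed by a rest. The control group received instillations on the same weekly schedule, and the paper does not say what these held. In a model of asthma, mice were sensitized and then challenged with ovalbumin. The 13 samples comprised 4 single-cell samples, titled Asthma, Control, PPE-emphysema and PPE-recovery, each from the whole lung of 1 mouse, and 9 bulk samples, 3 each of Acute, taken after the first elastase dose, Con and emphysema, which were not analysed here. The age of the mice was not found in the labels or methods. The single-cell barcodes carried a library number from 1 to 7, and no source used here ties a number to a titled sample. Libraries are therefore named by number, no comparison between models was made, and each value below belongs to 1 library, with an exact 95% interval that covers counting error only.

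Surfactant is the film of lipid and protein that lowers surface tension in the alveolus, and it is made by alveolar type 2 (AT2) cells. These cells cleave the hydrophobic proteins SP-B and SP-C from larger precursors, pack them with phospholipid into lamellar bodies and release the contents by exocytosis, while the collectins SP-A and SP-D bind microbes in the alveolar lining. AT2 cells also take surfactant back up, and alveolar macrophages clear the remainder.

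The members lie on 6 chromosomes of GRCm38, in the GENCODE annotation. Sftpa1 (chr14:41131782-41136452, plus strand) and Sftpd (chr14:41172214-41185149, minus strand) are neighbours on chromosome 14, which also holds Sftpc (chr14:70520949-70524081, minus strand). Sftpb lies at chr6:72304610-72314371 on the plus strand and Lamp3 at chr16:19653378-19706375 on the minus strand. Abca3 spans chr17:24351950-24410201, Napsa chr7:44572380-44586862 and Slc34a2 chr5:53038081-53071664, all on the plus strand. Slc34a2 overlaps the antisense gene Gm17182, to which 73 UMIs were counted against 36838 of Slc34a2, and Napsa overlaps Gm15396, with 8 UMIs against 41223. No source used here says whether counting used strand.

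Stretches upstream of the start site were read for 5 of the 8 members from RefSeq promoters of GRCm38.p6, and 3 are printed because they hold the short letters looked for. The search covered both strands of the 250 bases before the start for CTCAAG, the core of sites bound by the lung factor NKX2-1, and for TGTTTAC or TGTTTGC, bound by forkhead factors such as FOXA1 and FOXA2. Matches are in capitals. The first was present in 13.3% and the second in 7.29% of 32851 mouse promoters. The windows were chr6:72304360-72304609 on the plus strand for Sftpb, chr14:41131538-41131787 on the plus strand for Sftpa1 and chr16:19706366-19706615 on the minus strand for Lamp3.
Sftpb: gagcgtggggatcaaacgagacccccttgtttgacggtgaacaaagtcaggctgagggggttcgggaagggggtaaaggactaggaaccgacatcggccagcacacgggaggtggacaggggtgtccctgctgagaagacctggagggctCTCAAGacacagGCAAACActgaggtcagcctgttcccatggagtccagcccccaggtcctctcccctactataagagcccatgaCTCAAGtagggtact
Sftpa1: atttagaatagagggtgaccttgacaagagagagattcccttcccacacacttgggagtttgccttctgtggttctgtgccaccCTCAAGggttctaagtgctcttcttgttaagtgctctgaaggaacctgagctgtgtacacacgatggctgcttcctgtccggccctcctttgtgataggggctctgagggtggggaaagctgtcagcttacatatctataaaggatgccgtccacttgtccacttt
Lamp3: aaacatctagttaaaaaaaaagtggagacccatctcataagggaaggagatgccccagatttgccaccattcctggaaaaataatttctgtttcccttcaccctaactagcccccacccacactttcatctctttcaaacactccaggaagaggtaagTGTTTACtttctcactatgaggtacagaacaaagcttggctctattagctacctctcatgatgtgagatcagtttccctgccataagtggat
The Sftpb window held CTCAAG at 100 and at 15 bases before the start and, on the reverse strand, a forkhead match at 88 bases. That of Sftpa1 held 1 CTCAAG at 166 bases, and that of Lamp3 held 1 forkhead match at 92 bases. The windows of Abca3 (chr17:24351773-24352022) and Slc34a2 (chr5:53049103-53049352), both on the plus strand, held neither. The starts are those of RefSeq and need not match the GENCODE spans above. The Slc34a2 window lies wholly inside its span. A match describes the letters of the window and does not show a bound site.

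AT2 cells were taken as cells in which Sftpc made at least 2% of UMIs and Sftpb had at least 5 UMIs. These 2 genes chose the cells, so their levels there are a description. The rule took 323 of 19767 kept cells, which were 38 of 4551 in library 1, 145 of 7226 in library 2, 124 of 4958 in library 3 and 16 of 3032 in library 7. Libraries 4, 5 and 6 held no cell that met it and were left out of the levels below. Their Sftpc counts were 0, 0 and 2 UMIs over all barcodes. The library numbers exceed the single-cell samples, and no source used here gives the tissue of libraries 4, 5 and 6. The 4 libraries used held 34606626 to 79439569 UMIs in 3657 to 8747 barcodes, and each pair of them shared 6 to 17 barcodes.

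Few cells lay near the limits of the rule. Among cells with at least 5 Sftpb UMIs, 2 had an Sftpc share between 1% and 2% of UMIs, the highest of them at 1.96%, and 5 had one between 2% and 5%. Within the gate the Sftpc share ran from 2.34% to 25.9%, with a median of 18.3%, and the median Sftpb count was 140 UMIs. Of cells that passed on Sftpc, 7 inside the gate had 5 to 9 Sftpb UMIs, while 27 outside it had 1 to 4 and 15 had none. Those under 5 had a median of 794 UMIs in all.

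The label of the cells was checked on genes the gate did not use. All 7 AT2 markers tested (Cxcl15, Chil1, Lyz1, Etv5, Lpcat1, Hc and Acoxl) were at least 8 times higher in the gated cells than in other cells in every library, with a median fold of 429. Of 7 type 1 markers, Ager and Aqp5 passed the same rule, and Ager stood at 1060, 837, 765 and 1049 CPM (UMIs of a gene per 1000000 UMIs of the same cells) in libraries 1, 2, 3 and 7. None of 6 club or 8 ciliated markers tested was higher by it, and all 5 immune genes were at least 8 times lower. In clusters built without the 8 members, 311 of the 323 cells fell in the AT2-like cluster of 316 cells, 10 fell among club-like cells and 2 elsewhere. A Ptprc UMI was present in 28 gated cells, and 13 were called doublets. The limit on high UMI and gene counts and on mitochondrial UMIs had removed 126 cells, 28.1% of all that met the gate. The loss was uneven, since 38 of 68, 145 of 185, 124 of 165 and 16 of 31 such cells were kept in libraries 1, 2, 3 and 7. Its part in the differences between libraries below was not tested.

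The 8 members together took 21.0%, 23.9%, 24.3% and 20.6% of all AT2 UMIs in libraries 1, 2, 3 and 7. Sftpc, the precursor of the hydrophobic protein SP-C, alone gave 72.6% to 78.1% of the UMIs of the set. It stood at 152631, 184993, 189560 and 152982 CPM in the same order of libraries. Libraries 2 and 3 were above libraries 1 and 7, and the highest was 1.24 times the lowest. Sftpb, which encodes the SP-B that surface film formation requires, was at 5807, 8406, 9875 and 7877 CPM. Its level in library 1 was 0.588 times that in library 3 (interval 0.568 to 0.609), and library 1 was the lowest of the 4.

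The collectin gene Sftpd ran in the other order. This gene, which encodes SP-D, was at 9494 CPM in library 1 (9262 to 9731), 5168 in library 2, 4763 in library 3 (4665 to 4863) and 7560 in library 7. Libraries 1 and 7 were therefore high for Sftpd, and the ratio of library 1 to library 3 was 1.99 (1.93 to 2.06), the widest span among the 8 members. Sftpd accordingly made 4.52% of the set's UMIs in library 1 and 1.96% in library 3. Sftpa1, which encodes SP-A, was at 30922, 28302, 26160 and 26127 CPM, so that library 1 was again the highest, by a factor of 1.18 over library 7, the lowest, and Sftpa1 did not share the order of Sftpd. The intervals leave out the spread between animals. With no replicate known for any library, and 16 gated cells in library 7, these differences have no spread to be set against.

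The highest library was 1.07 to 1.30 times the lowest for each of the remaining members. Abca3, the transporter that loads phospholipid into lamellar bodies, was at 955, 971, 1020 and 876 CPM. Lamp3 (DC-LAMP), a membrane protein of the lamellar body, was at 1877, 1758, 1768 and 1842 CPM, and its highest value was 1.07 times its lowest, the narrowest span of the set. Napsa, whose product cleaves pro-SP-B, was at 1873, 2206, 2433 and 1891 CPM, with libraries 2 and 3 above the other 2 as for Sftpc. Slc34a2, which takes up phosphate from the alveolar space, was at 6713, 7205, 7158 and 6352 CPM, a span of 1.13. Molecules were tagged at the 3′ end, and levels are compared between libraries, not between genes.

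**Figure D1:**
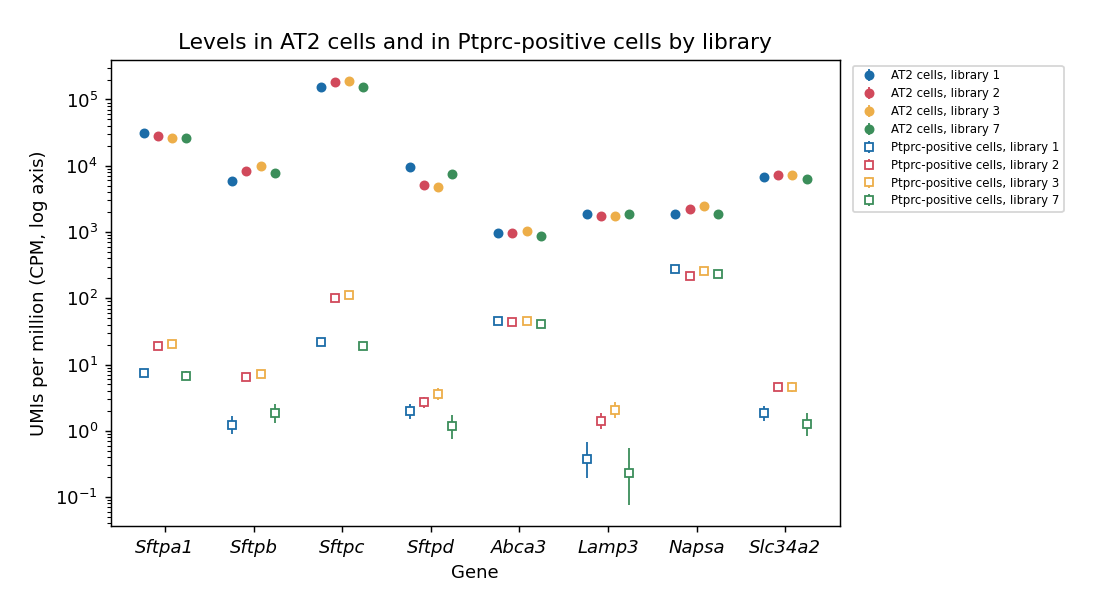
Level of each of the 8 genes in CPM on a log axis, in AT2 cells (filled circles) and in cells with a Ptprc UMI (open squares) of libraries 1, 2, 3 and 7, with exact 95% intervals, which are smaller than most points. In AT2 cells Sftpd is highest in library 1 (9494 CPM) and lowest in library 3 (4763 CPM), while Sftpb runs from 5807 CPM in library 1 to 9875 in library 3, and the squares of Napsa and Abca3 lie nearest to their circles.

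Nearly every AT2 cell held UMIs of each member that the gate did not use, while the gate itself required UMIs of Sftpc and Sftpb. After each cell was thinned to 1500 UMIs, which kept 314 cells, the median share of cells with a UMI over the 4 libraries was 100% for Sftpa1, Sftpc, Sftpd and Slc34a2 and 99.7% for Sftpb. It was 94.2% for Napsa, 89.8% for Lamp3 and 73.5% for Abca3. Before thinning, the shares of Lamp3 and Abca3 were both 99.7%, so the lower thinned shares belong to the number of UMIs read.

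The coefficient of variation over cells was highest for Sftpd by its median over libraries. At 5000 UMIs per cell, the spread of Sftpd beyond counting error had a median coefficient of variation of 48.2% over the 4 libraries (39.4% to 69.0%). That of Sftpc, which the gate used, was 24.2% (19.96% to 37.9%). The medians of the other 6 lay between 27.1% for Sftpb and 34.6% for Slc34a2, and their ranges over libraries overlapped. In CPM of Sftpd, the cell at the 90th percentile held 2.998 to 6.03 times as much as the cell at the 10th. By that measure others were wider in some libraries, among them Abca3 at 3.67 in library 1 and Lamp3 at 9.11 and Slc34a2 at 8.55 in library 7.

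Pairs of members differed in how they varied over the AT2 cells of a library, given here as Spearman coefficients over cells that share a library and a depth. The neighbouring genes Sftpa1 and Sftpd gave 0.387 to 0.668 over the 4 libraries, with a median of 0.485, the highest of the 28 pairs. Lamp3 and Slc34a2 gave 0.281 to 0.781 and Abca3 and Slc34a2 0.115 to 0.675. Sftpb and Sftpc gave 0.195 to 0.731. Sftpa1 and Abca3 ran the other way, at -0.502 to -0.0673. The number of cells per library was small, and the weaker coefficients of sparse genes are no finding.

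**Figure D2:**
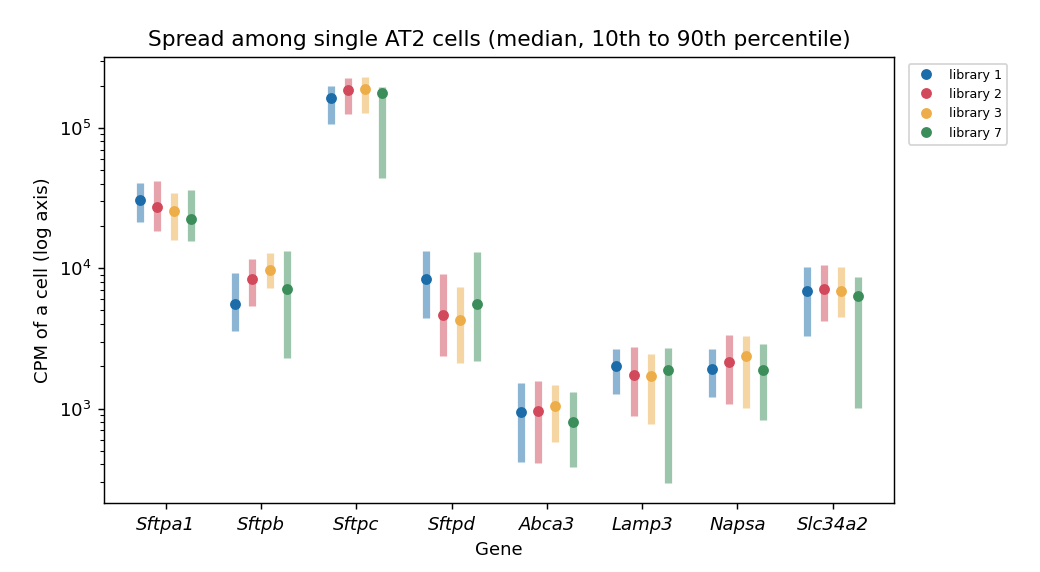
CPM of single AT2 cells on a log axis for the 8 genes in libraries 1, 2, 3 and 7, with the median cell as a point and the 10th to 90th percentile as a bar. Library 7, with 16 cells, has the longest bars for most genes, and at an equal depth of 5000 UMIs the spread beyond counting error was 48.2% for Sftpd against 24.2% for Sftpc.

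Most transcripts of Slc34a2, Lamp3, Sftpa1 and Sftpd came from the gated cells. Nothing is read from the shares of Sftpc and Sftpb, since both chose the cells. Although these were 0.528% to 2.50% of kept cells, they held 97.7% to 98.7% of Sftpc UMIs, 96.0% to 98.1% of Sftpb, 95.3% to 98.6% of Slc34a2, 94.01% to 98.6% of Lamp3, 93.99% to 97.9% of Sftpa1 and 93.5% to 97.9% of Sftpd. For Abca3 the share was 18.4% to 52.1%, and for Napsa it was 9.13% to 38.5%. Most Napsa UMIs of every library thus lay outside AT2 cells.

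All 8 members had at least 20 UMIs in each of the 4 libraries. The other cells here were kept cells outside both the gate and the AT2-like cluster. In every library 7 members were at least 8 times higher in AT2 cells than in these. Of the 13231 genes with at least 20 UMIs in each library, 232 met that rule, or 1.75%, and 306, or 2.31%, were at least 8 times lower. Nothing is read from Sftpc and Sftpb here, since both chose the cells. Of the other 6, 5 met the rule. Slc34a2 was 2047, 1320, 1382 and 4227 times higher in libraries 1, 2, 3 and 7, and its lowest fold over the libraries was the highest of all genes tested. Lamp3 was 1963, 978, 766 and 6478 times higher. The collectin genes were close to each other, Sftpd at 1442, 1010, 944 and 3384 and Sftpa1 at 1447, 971, 907 and 2669. Each of these folds was lowest in library 2 or 3 and highest in library 7. In library 1 the AT2-like cluster held 4594 Slc34a2 UMIs and the gated cells 4492, against 120 in the other cells. Folds with the 5 AT2-like cells outside the gate put back among the other cells were not computed.

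Abca3 and Napsa stood well below. Abca3 was 20.6, 21.7, 21.6 and 20.9 times higher in AT2 cells, place 119 of the genes tested by lowest fold, and nearly the same in each library. Napsa was 7.75, 15.7, 12.4 and 9.34 times higher, place 238, and missed the rule through library 1. Without library 1 all 8 members met it, beside 242 genes in all.

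**Figure D3:**
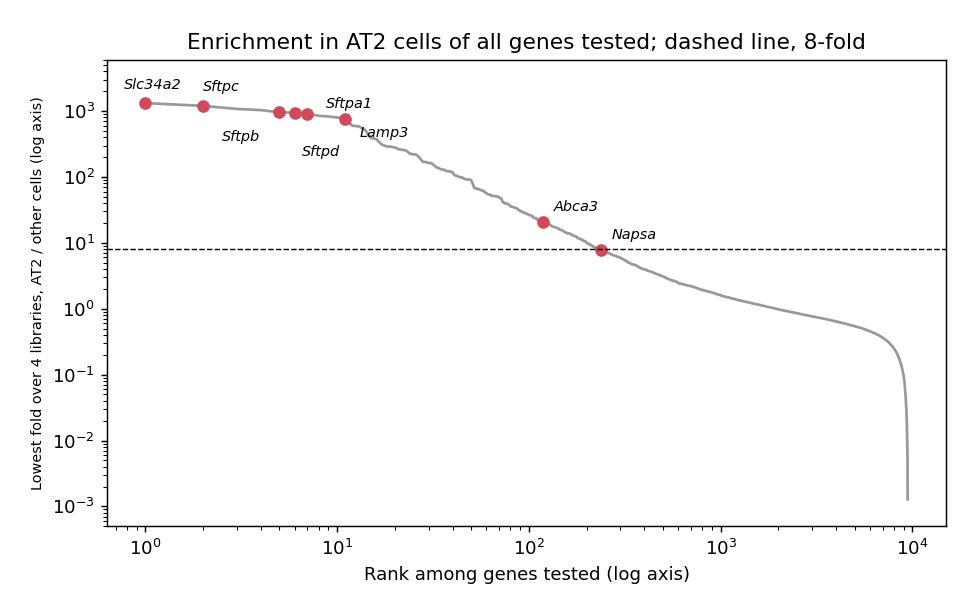
Lowest fold over the 4 libraries of AT2 cells over kept cells outside the gate and the AT2-like cluster, on a log axis. It is drawn against the rank of the gene by that fold, also on a log axis. The 8 genes are red points on the grey line of all genes tested, with a dashed line at 8-fold. Abca3 (20.6) and Napsa (7.75, just under the line) lie far below the other 6 members, whose lowest folds are 766 or more, and genes whose lowest fold is 0 are not drawn.

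The level of the members was also taken from 13091 cells with a UMI of Ptprc (CD45), outside the gate and the epithelial clusters but not limited to immune clusters. In these cells Sftpc was at 21.7, 102, 112 and 19.0 CPM in libraries 1, 2, 3 and 7, Sftpa1 at 7.54, 19.3, 20.3 and 6.82 and Sftpb at 1.24, 6.40, 7.17 and 1.87. All 3 were high in libraries 2 and 3, which held the most AT2 cells. Sftpd was at 1.97, 2.69, 3.64 and 1.17 CPM, Slc34a2 at 1.85, 4.62, 4.66 and 1.26, and Lamp3 at 0.38, 1.42, 2.07 and 0.23. Abca3, at 44.9, 44.4, 46.1 and 41.2 CPM, and Napsa, at 278, 215, 262 and 229 CPM, did not follow that order of libraries.

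A share of cells with a UMI was read beside this background. In the Ptprc-positive cells the median share over libraries was 33.3% for Sftpc at a median of 8003 UMIs per cell, and 9.80% after thinning to 1500 UMIs. It was 8.84% and 1.998% for Sftpa1, 3.28% and 0.791% for Sftpb, 2.10% and 0.468% for Slc34a2, 1.68% and 0.484% for Sftpd and 0.770% and 0.134% for Lamp3. For Napsa it was 51.3% and 24.9%, and for Abca3 28.5% and 5.70%. The AT2 cells had a median of 16511 UMIs.

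Transcripts that leak from 1 source into other droplets keep the ratio they have in that source. The ratio of each member to Sftpc in a class was therefore divided by the same ratio in AT2 cells of the same library. Sftpc, the divisor, and Sftpb chose these AT2 cells, and gated cells were left out of every other class. Cells of the AT2-like cluster outside the gate were in neither group. The part of this choice in quotients above 1 was not tested. In Ptprc-positive cells the median of this quotient was 1.26 for Sftpd, 1.38 for Slc34a2, 1.44 for Sftpb, 1.45 for Lamp3 and 1.51 for Sftpa1. It was 207 for Abca3 (76.2 to 378) and 576 for Napsa (177 to 1045). Sftpa1 was above 1 in all 4 libraries, at 1.72 (1.47 to 1.99), 1.24 (1.14 to 1.34), 1.31 (1.19 to 1.43) and 2.10 (1.72 to 2.54), and so was Sftpb, at 1.503, 1.38, 1.22 and 1.90. The intervals of Sftpd, Slc34a2 and Lamp3 lay above 1 in 2 libraries each. From the Sftpc found in these cells, free RNA of AT2 cells alone would give 0.266, 1.22, 1.44 and 0.235 CPM of Napsa, against the 215 to 278 CPM counted. Most Napsa UMIs, and in some libraries most Abca3 UMIs, came from other cells, whose free RNA also raises this quotient, and its part in the values of Napsa and Abca3 was not tested.

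Napsa was found at its highest outside AT2 cells in monocytes, dendritic cells and B cells. Nonclassical monocyte-like cells held 825, 980, 815 and 1010 CPM in libraries 1, 2, 3 and 7, below the lowest AT2 value of 1873. Type 2 dendritic cell-like cells held 532, 688, 558 and 705 CPM, below every nonclassical value. Classical monocyte-like cells (570, 583, 586 and 482 CPM) and B cell-like cells (428, 508, 451 and 860 CPM) overlapped with the type 2 dendritic cells and with each other. Plasmacytoid dendritic cell-like cells, counted in 1 library, followed at 356 CPM, then type 1 dendritic cell-like cells at a median of 350, mature dendritic cell-like cells at 248, neutrophil-like cells at 202, basophil or mast cell-like cells at 163 and NK cell-like cells at 105. Napsa was lower in T cell-like cells (28.8), fibroblast-like cells (13.0), endothelial-like cells (12.4), ciliated-like cells (5.25) and smooth muscle or pericyte-like cells (4.95).

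In nonclassical monocyte-like cells the quotient of Napsa over Sftpc was 2288, 620, 585 and 4450 in libraries 1, 2, 3 and 7, and its lower bounds were 507 and above. In type 2 dendritic cell-like cells it was 2255, 820, 907 and 2945. Set against lymphocyte-like clusters in place of AT2 cells, the median quotient of Napsa was 4.09 in nonclassical monocyte-like, 4.98 in type 2 dendritic cell-like and 2.99 in classical monocyte-like cells. Those lymphocyte clusters themselves held Napsa. Their own quotient over AT2 cells ran from 147 to 3737, and in library 7 it was above the 2945 of type 2 dendritic cell-like cells. The value for B cell-like cells, 10.2, is not on the same reference and cannot be ranked with these. B cell-like cells held 4761 of the 5088 Napsa UMIs of the lymphocyte clusters. In nonclassical monocyte-like and type 2 dendritic cell-like cells the quotient over AT2 cells was higher in libraries 1 and 7, where Sftpc was low, while the Napsa level was not higher in both of these libraries.

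Abca3 was spread over more classes at lower levels. Endothelial-like cells held 70.1, 63.1, 76.6 and 66.1 CPM, and nonclassical monocyte-like cells 75.0, 74.2, 70.4 and 91.8 CPM, ranges that overlap. Ciliated-like cells, counted in libraries 2 and 3, held 103 and 141 CPM, above both. Club-like cells held 45.6 to 179 CPM and lymphatic endothelial-like cells, counted in library 2 alone, 149.98 CPM. Fibroblast-like cells held 15.6, 17.9, 19.8 and 24.4 CPM. The lowest were NK cell-like cells, at a median of 2.02 CPM from 4 UMIs in 252 cells, and basophil or mast cell-like cells, with 1 UMI in 87 cells.

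The quotient of Abca3 was 335, 80.3, 114 and 554 in endothelial-like cells, and 137 and 305 in the ciliated-like cells of libraries 2 and 3. Against lymphocyte-like clusters the median was 2.10 in endothelial-like, 5.28 in ciliated-like and 2.58 in nonclassical monocyte-like cells. For the other 5 members the interval was read over 23 classes. Only libraries with at least 20 cells of a class were counted. Lamp3 was above 1 in every such library in 2 classes, each with 1 such library only. Sftpa1, Sftpb and Sftpd were above 1 in this way in 1 class each. These were the club-like cells for Sftpa1 and Sftpd and again a class with 1 such library for Sftpb. Slc34a2 was above 1 in this way in none. In at least 1 library, Sftpa1 was above 1 in 12 classes, Sftpb in 9, Lamp3 in 8, Slc34a2 in 7 and Sftpd in 5. The median quotient over classes was 0.642 for Lamp3, 0.985 for Sftpd, 1.03 for Slc34a2, 1.26 for Sftpb and 1.31 for Sftpa1, beside 133 for Abca3 and 106 for Napsa. Lamp3 is known as a marker of mature human dendritic cells, and here the 207 mature dendritic cell-like cells held 2 Lamp3 UMIs. Eosinophil-like cells, named after the cell type at the centre of the study, were shallow, with a median of 529 UMIs in 231 cells of libraries 1 and 7, and held 15 Sftpc, 12 Sftpa1, 12 Napsa and 9 Sftpb UMIs. Their Sftpb quotient was 13.1 (0.223 to 252) from 1 UMI in library 1 and 11.95 (4.29 to 31.1) from 8 UMIs in library 7. They need not match the paper's eosinophil clusters, for which it gives Rnase2a, C1qa and Alox15, beside Epx, Prg2, Ccr3 and Il5ra. Here Rnase2a and C1qa were top genes of macrophage-like clusters, while Ccr3 and Alox15 were top genes of the eosinophil-like cluster. The paper also rests its clusters on sorted eosinophils and on staining for ECP, which were not examined here.

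**Figure D4:**
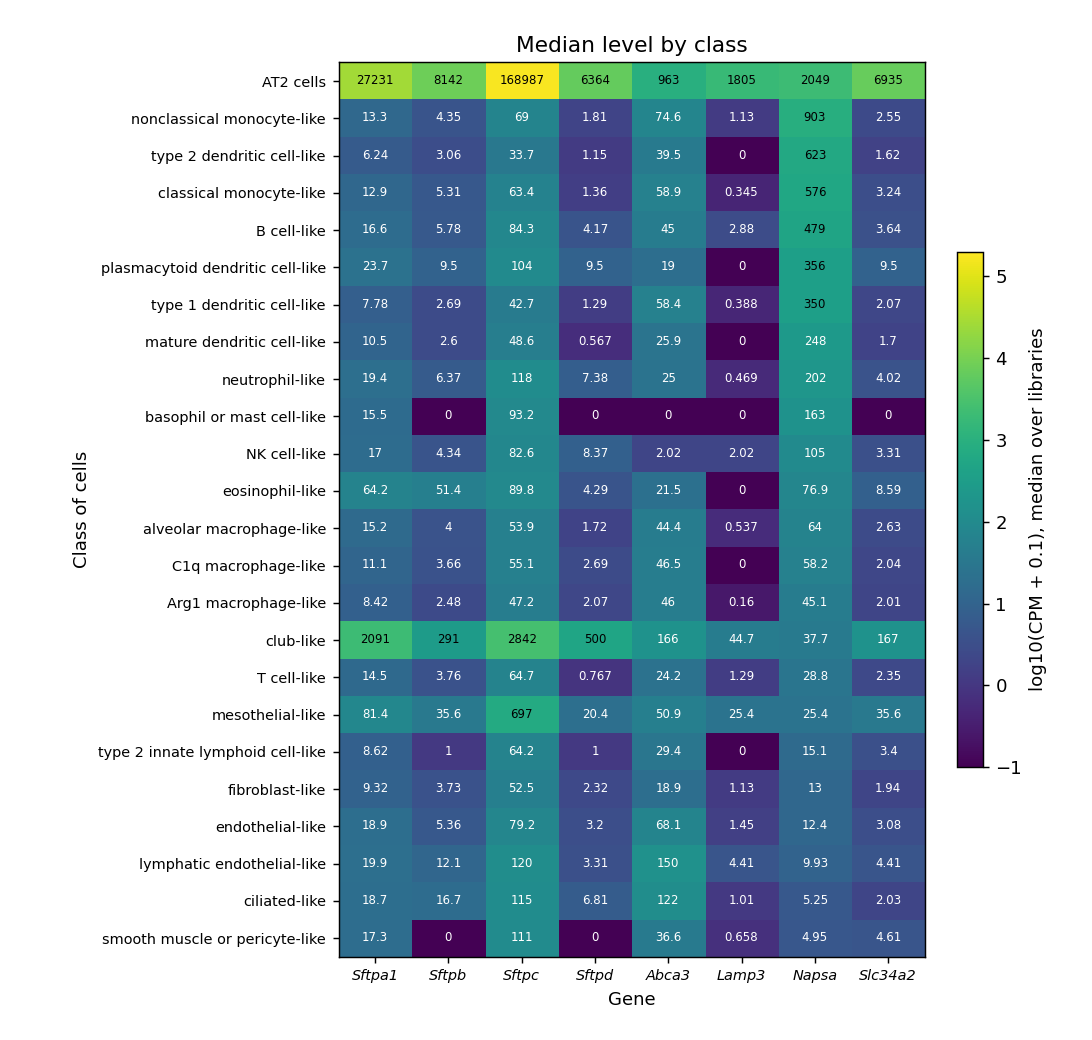
Median level over libraries of the 8 genes in each cell class with at least 20 cells in a library, in CPM on a log color scale. Napsa reaches 903 CPM in nonclassical monocyte-like cells, Abca3 stays between 0 and 166 CPM outside AT2 cells, and the other 6 are high in AT2 cells and next in club-like cells.

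Club-like cells, named from markers of the secretory cells of the airway, were the class in which the intervals of both collectin genes lay above 1 in every library with at least 20 of them. There were 147 of them outside the gate, 34, 44, 61 and 8 in libraries 1, 2, 3 and 7, and Scgb1a1, the club cell secretory protein, was at 203467, 260267 and 246179 CPM in the first 3. Sftpa1 was at 3641, 2091 and 1128 CPM and Sftpd at 1153, 499.5 and 186 CPM, both highest in library 1. Sftpb was at 226, 455 and 291 CPM and Sftpc at 2842, 8499.9 and 1226 CPM, both highest in library 2. Slc34a2 was at 369, 167 and 87.6 CPM and Lamp3 at 136, 44.7 and 31.5 CPM.

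The quotient of Sftpa1 over Sftpc in club-like cells was 6.32 (5.51 to 7.26) in library 1, 1.61 (1.46 to 1.77) in library 2 and 6.67 (5.71 to 7.78) in library 3. That of Sftpd was 6.52 (5.36 to 7.91), 2.10 (1.74 to 2.53) and 6.03 (4.42 to 8.07). Both lay above 1 in all 3 libraries with at least 20 such cells, but for Sftpa1 in library 2 this rested on 1 cell. The gate had moved 0, 2, 7 and 1 further club-like cells of libraries 1, 2, 3 and 7 out of this class. Their median Sftpc share was 11.6% of UMIs. Their removal lowers the Sftpc count by which each quotient divides, and quotients with these cells put back were not computed. Sftpb lay above it in libraries 1 and 3, at 2.09 (1.39 to 3.04) and 4.55 (3.54 to 5.80), and at 1.18 (0.964 to 1.43) in library 2. Slc34a2 gave 2.96, 0.503 and 1.89, above in 2 libraries and below in the other.

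Few cells carried part of these counts. In library 1, 1 club-like cell held 359 of 377 Sftpc UMIs, or 95.2%, and in library 2, 1 cell held 302 of 515 Sftpa1 UMIs, or 58.6%. With the cell that held most Sftpa1 left out of each library, the Sftpa1 quotient was 5.24 (4.53 to 6.05), 0.666 (0.575 to 0.767) and 5.83 (4.97 to 6.85), below 1 in library 2. With the cell that held most Sftpd left out instead, that of Sftpd was 5.17 (4.17 to 6.38), 1.83 (1.47 to 2.25) and 5.46 (3.95 to 7.40), above 1 in each, and that of Sftpb, treated likewise, was 1.89, 0.884 and 3.78. Over every choice of 1 cell to leave out of library 1, the quotient ran from 5.24 to 130 for Sftpa1, 5.17 to 137 for Sftpd and 1.89 to 43.8 for Sftpb. The size of the library 1 quotients thus rested on 1 cell, which their intervals do not cover. With the cell that held most Slc34a2 left out, its quotient was 44.2 (24.3 to 83.0) in library 1 and 0.417 in library 2. In library 3 it was 1.29 (0.743 to 2.10), no longer above 1 by its interval. In library 7, 57 of 62 Sftpa1 UMIs lay in 1 cell. Sftpc made at least 1% of UMIs in 24 of the 147 cells, 12 were called doublets, and the median cell had 1932 UMIs. Ager, a type 1 cell gene, was at 2193, 6173 and 1142 CPM in club-like cells against 1.75, 4.01 and 4.77 in Ptprc-positive cells. An Ager UMI was present in 14.7%, 50%, 23.0% and 75% of club-like cells in libraries 1, 2, 3 and 7. No cluster was named type 1-like, so the club-like class may hold type 1 cells.

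Without the cells that held an Ager UMI, 29, 22 and 47 club-like cells remained in libraries 1, 2 and 3. The quotient of Sftpa1 was then 4.17 (3.58 to 4.86), 2.62 (2.33 to 2.94) and 6.92 (5.84 to 8.19). The cell with 302 Sftpa1 UMIs was among them in library 2, and without it the quotient there was 0.737 (0.604 to 0.892). That of Sftpd was 4.45 (3.54 to 5.55), 1.30 (0.913 to 1.79) and 5.94 (4.21 to 8.21), so that its interval no longer lay above 1 in library 2. That of Sftpb was 1.82 (1.17 to 2.71), 1.34 (1.03 to 1.73) and 4.80 (3.65 to 6.24), and in library 2 it was 0.757 (0.527 to 1.05) without the cell that held most Sftpb.

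Cells without any Sftpc UMI were looked at as well. Among 67 such club-like cells of the 4 libraries, 40 held Sftpa1, 31 Sftpd, 26 Sftpb, 14 Slc34a2 and 2 Lamp3. Cells with an Ager UMI were not left out here. All 8 club-like cells of library 7 were among the 67, and of these 8, 62.5% held Scgb1a1 and 75% held Ager. By library the share with Sftpa1 was 85.7%, 44.4%, 55.2% and 25%, against 5.17%, 14.4%, 10.9% and 5.46% of the Ptprc-positive cells without Sftpc, 8160 in all. In libraries 1 and 3 the share in club-like cells, from 18 of 21 and 16 of 29 cells, had intervals of 63.7% to 96.95% and 35.7% to 73.6%, above that of Ptprc-positive cells. The shares of libraries 2 and 7 came from 4 of 9 and 2 of 8 cells, with intervals of 13.7% to 78.8% and 3.19% to 65.1%, which took in the Ptprc-positive share. These values stood at different depths, since over cells with and without Sftpc the median was 8003 UMIs in Ptprc-positive and 1932 in club-like cells. In the other direction, Scgb1a1 was at 139, 843, 4947 and 3631 CPM in AT2 cells against 306, 548, 757 and 133 in Ptprc-positive cells, below in library 1 and above in the other 3. The gated AT2 cells included 0, 2, 7 and 1 cells of the club-like cluster in libraries 1, 2, 3 and 7. Their part in the Scgb1a1 values was not tested.

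**Figure D5:**
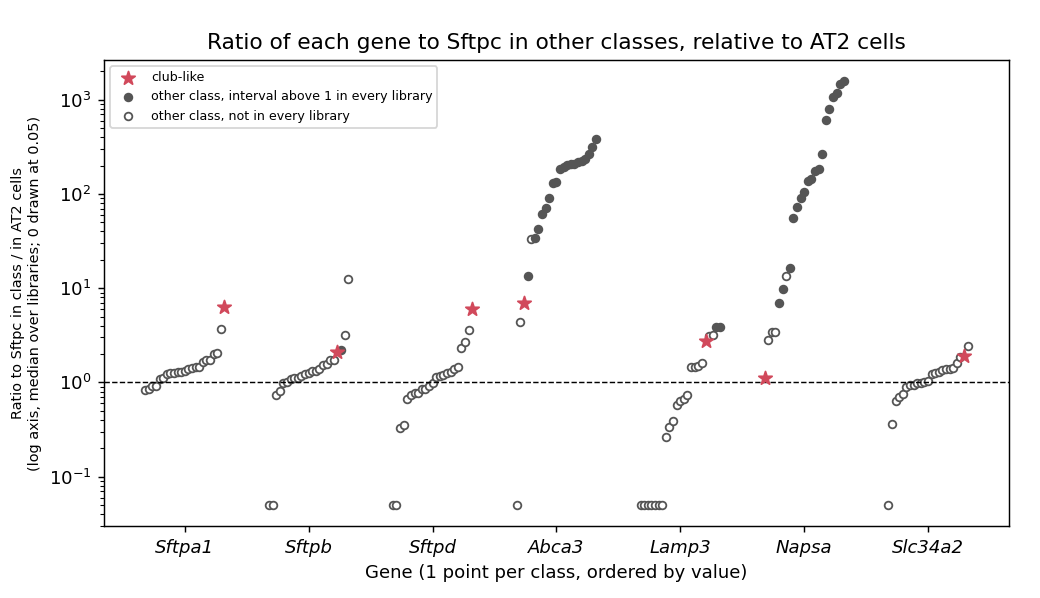
Ratio of each gene to Sftpc in a class divided by that ratio in AT2 cells, as the median over libraries on a log axis, with 1 point per class, filled where the exact 95% interval is above 1 in every library, a red star for club-like cells, values of 0 drawn at 0.05 and a dashed line at 1. Most points of Abca3 and Napsa lie far above the line, while those of the other genes lie around it. Club-like cells outside the gate, which had removed some with much Sftpc, lie at 6.32 for Sftpa1 and 6.03 for Sftpd. The reading of Abca3 and Napsa takes AT2 cells as the only source of free RNA.

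Genes that work with the members were read from lists of known function, against the 1.75% of all tested genes that were at least 8 times higher in AT2 cells of every library. Of 24 surfactant lipid synthesis genes tested, 6 met the rule and none the opposite one, with a median fold over the list of 2.85 beside 0.644 for all genes. Scd1, which desaturates fatty acids, led at 155, 285, 105 and 162 times in libraries 1, 2, 3 and 7, and Fasn, the fatty acid synthase, stood at 37.2, 52.0, 41.3 and 34.5. The fatty acid elongase Elovl6 had the lowest median fold, 0.0549, followed by the phosphatidic acid phosphatase Lpin1 at 0.354. Of 28 genes for processing, lamellar bodies and secretion, 3 were higher and 1 lower, and the list's median fold was 0.903. The carboxypeptidase Cpm led it at a median of 35.7, and the sterol transporter Abcg1 was the lowest at 0.0176.

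Of 14 other secreted or surface genes of AT2 cells, 11 met the rule. The complement gene Hc led at a median fold of 1673, and H2-Aa of the class II complex was lowest at 0.470. Of 13 lung epithelial transcription factors, 9 met it, led by Tfcp2l1 at 326, while Sox9 was lowest with a median fold of 0 and Hopx followed at 0.421. Sox9 had 2 UMIs in AT2 cells and at most 1.15 CPM in other cells, too few counts to read its fold as low. Nkx2-1 and Foxa2, whose motifs were looked for in the promoters, stood at 236 and 46.7. Of 9 epithelial identity genes 4 were higher, with Cldn18 leading at 170. None of 9 genes for surfactant uptake and catabolism was higher and 4 were lower, Csf2rb, a receptor of macrophages, lowest at 0.0186. None of 6 genes of the transitional state was higher and 2 were lower. Among them, Krt8 missed the rule through library 3, at 67.9, 9.56, 7.54 and 20.6 times in libraries 1, 2, 3 and 7. Itgb6 and Cldn4 of that list had too few UMIs to be tested.

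The genes whose levels ran most like those of the members were found over 80 points, each a class in a library, that share libraries and the AT2 cells. The 6 members high in AT2 cells gave Pearson coefficients of log2 levels of 0.856 to 0.941 among themselves. Without the AT2 points, whose cells Sftpc and Sftpb chose, the same pairs gave 0.584 to 0.842. Sftpc was followed by Cxcl15 at 0.937 and S100g at 0.929, Slc34a2 by Cxcl15 at 0.926, Sftpd by S100g at 0.923, Sftpa1 and Lamp3 by S100g at 0.922 and 0.926, and Sftpb by Cxcl15 at 0.885. Abca3 was nearest to Lpcat1, which remodels surfactant phosphatidylcholine, at 0.774 and to Gde1 at 0.762. Napsa was nearest to Taok3 at 0.676 and Nuak2 at 0.663, and gave 0.216 to 0.328 with the other members.

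Leaving out AT2 cells changed the nearest genes. Over the remaining 76 points, Scgb1a1 led for Sftpc at 0.898, Sftpa1 at 0.843, Sftpd at 0.816, Sftpb at 0.799 and Slc34a2 at 0.796. Napsa then led with Rnase6 at 0.845 and Haao at 0.842. In Ptprc-positive cells Scgb1a1 was at 306, 548, 757 and 133 CPM in libraries 1, 2, 3 and 7. Sftpc there was at 21.7, 102, 112 and 19.0 CPM, so that both were higher in libraries 2 and 3. Club-like cells of libraries 1, 2 and 3, with Scgb1a1 at 203467 CPM or more, were also among the points. The part of free RNA and of the club-like points in the Scgb1a1 coefficients was not tested.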

How the data were processed

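Single-cell RNA-seq was deposited by the authors as 1 merged matrix of raw UMI counts per gene and barcode, made with Cell Ranger and STAR against mm10 per the submitters' processing notes. Bulk files were not used. No source used here says whether counting used strand.

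Barcodes of libraries 1, 2, 3 and 7 were kept within the mean and 2 SD of UMIs and genes and at up to 10% mitochondrial UMIs, leaving 19767 cells. Cells were clustered without the 8 members (2000 variable genes, 30 principal components, mutual nearest neighbors, 20 neighbors, Leiden at resolution 0.8), and the 50 clusters were named from markers. Clusters with over 50% Scrublet doublets, a limit set after seeing them, stayed unnamed. Doublets were otherwise limited by the upper limits alone.

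Levels are summed UMIs scaled to 1000000 per group of cells (CPM) with exact Poisson intervals. Shares have exact binomial intervals, and quotients over Sftpc have exact conditional intervals. A gene was called at 8-fold in every library with 20 UMIs or more. A count of 0 in the other cells was set to 3. A count of 0 in AT2 cells was set to 3 for the call of lower genes only, so that a printed fold can be 0. With no groups, no test was run. Genes named are the members, list genes of highest or lowest median fold with a few chosen after their values were seen, and the nearest genes by correlation. The members and lists were chosen with earlier results of these data known. Python 3.11.15, numpy 2.4.6, scipy 1.17.1, pandas 2.3.3, scanpy 1.11.5 and leidenalg 0.10.2 were used. Procedures were tested on simulated data. Alternatives changed the cell limits, gate, doublets, denominator, clustering, reference, thresholds and libraries.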

Additional observations from a re-analysis of the deposited data

Results flagged for a closer look

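Libraries 4, 5 and 6, which entered no comparison and held no AT2 cell, still carried UMIs of 3 members above the limit that a count of 0 allows. Napsa stood at 351, 214 and 226 CPM of all their UMIs, in 1487, 1871 and 2263 barcodes. Abca3 stood at 26.4, 22.7 and 21.8 CPM. Lamp3 stood at 1.13 CPM in library 5 and 0.969 CPM in library 6. Sftpa1 and Sftpd had no UMI in any of the 3, which allows up to 0.101, 0.0920 and 0.0969 CPM, and Sftpb, Sftpc and Slc34a2 had at most 2 UMIs in a library. The tissue of libraries 4, 5 and 6 is not given, so these levels are not read as levels of the lung.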

How the results depend on the processing

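With the UMIs of all genes but the 8 members as denominator, the AT2 level was 35868 CPM for Sftpa1, 10481 for Sftpb, 218182 for Sftpc, 1243 for Abca3, 2327 for Lamp3, 2639.6 for Napsa and 8976 for Slc34a2. With no upper limit on UMIs and genes it was 847 for Abca3, 1633 for Lamp3 and 6216 for Slc34a2, and with no filter on cells 865, 1673 and 6423. The number of AT2 cells was 178 to 307 with 1 library left out. The quotient of Sftpb in club-like cells was 4.54 without alignment and 4.84 without Scrublet cells. Against lymphocyte clusters, which themselves hold Abca3 and Napsa, the quotient was 2.10 for Abca3 in endothelial-like, 5.28 in ciliated-like and 2.58 in nonclassical monocyte-like cells (264 against AT2 cells), and for Napsa 2.99 in classical monocyte-like, 4.98 in type 2 dendritic cell-like and 4.09 in nonclassical monocyte-like cells (1454). The 10.2 of Napsa in B cell-like cells (606 against AT2 cells) is not on the same reference. In lymphocytes Abca3 was at 32.8 CPM and Lamp3 at 1.95. The number of genes higher in AT2 cells was 395 at a fold of 4, 144 at a fold of 16 and 423 with no minimum of UMIs, and the members among them were 8, 7 and 7. Thinned to 1500 UMIs, the share of AT2 cells with a UMI was 99.7% for Sftpb, 73.5% for Abca3, 89.8% for Lamp3 and 94.2% for Napsa, and of Ptprc-positive cells 1.998% for Sftpa1, 0.791% for Sftpb, 9.80% for Sftpc, 0.484% for Sftpd, 5.70% for Abca3, 0.134% for Lamp3, 24.9% for Napsa and 0.468% for Slc34a2. A smaller denominator raises each level by arithmetic, and leaving out a library removes its AT2 cells. The cause of the other shifts was not tested. Of the other values under alternatives, 155 were counted as near the reported one, and so were 112 of those with 1 library left out. For levels and quotients this meant a difference of less than 1 SD over libraries, a wide measure for the quotients of Napsa and Abca3. Counts did not follow that measure. The 449 AT2 cells with no filter on cells, beside 323, were among the 155. The 318 genes higher in AT2 cells without library 7, beside 232, were among the 112. The split of club-like cells by Ager and the leaving out of 1 club-like cell were chosen after seeing the data. Leaving out the cell with most Sftpa1 put the Sftpa1 quotient of library 2 at 0.666. That of library 1 ran from 5.24 to 130 by the cell left out.

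Depth limits Abca3 in single cells and the classes with few cells, and 16 AT2 cells limit library 7. No paired analysis was possible because the libraries carry no group or replicate number of the labels.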
